A study of Mus musculus with 12 samples.

Results

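The Schlafen genes of the mouse were followed in follicular (FO) B cells, the recirculating B cells of lymphoid follicles, under interferon and TLR9 stimulation. The members were the 7 genes Slfn1, Slfn2, Slfn3, Slfn4, Slfn5, Slfn8 and Slfn9, taken by symbol from the 22561 genes of the count table. RNA was measured in 12 samples by bulk RNA barcoding sequencing (BRB-seq), which tags the 3′ end of each transcript with a unique molecular identifier (UMI). The mice were C57BL6 of 10 weeks of age, and FO B cells were sorted from spleen. The 4 groups of 3 samples each were Unstimulated and, after 12 h of stimulation, IFNa (a type I interferon), CpG (an oligonucleotide ligand of TLR9) and CpG + IFNa. The sources used here leave out if Unstimulated cells went through culture, so that culture and stimulus cannot be told apart in comparisons against them, while CpG + IFNa, CpG and IFNa share the time of stimulation. Nothing says either that samples of a group came from separate mice, so that p-values measure the spread between these samples, which may be technical.

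Schlafen proteins share an N-terminal domain that acts as an RNA nuclease in several of them, and the long members also carry a helicase-like domain. Many Schlafen genes are induced by type I interferon, whose receptor signals through Jak1 and Tyk2 to a transcription factor complex with Stat2 and Irf9 that binds the interferon-stimulated response element (ISRE) of target promoters. In lymphocytes the family is known for restraint of growth. Slfn1 slows T cell growth when overexpressed, and Slfn2 maintains quiescence of T cells and protects tRNA from cleavage.

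All members lie in 1 cluster on chromosome 11, between positions 82951349 and 83215154 of GRCm38, a span of 264 kb. Their order is Slfn5 on the plus strand, Slfn9 and Slfn8 on the minus strand, and Slfn2, Slfn1, Slfn4 and Slfn3 on the plus strand. Slfn1 (ENSMUSG00000078763) and Slfn2 (ENSMUSG00000072620) are short, with coding sequences of 1011 and 1134 bases. Slfn3 and Slfn4 have 1920 and 1806 coding bases. The long members Slfn5 (ENSMUSG00000054404), Slfn8 (ENSMUSG00000035208) and Slfn9 (ENSMUSG00000069793) have 2652, 2730 and 2730 bases. The closest pairs by coding sequence were Slfn8 and Slfn9, at 92.7% identity, and Slfn3 and Slfn4, at 92.1%. Because BRB-seq reads come from transcript ends, stretches of 81 bases in the last 600 bases of each transcript were compared with all annotated transcripts. The transcript with the longest coding sequence was taken for each gene. In it, none of the stretches of Slfn1, Slfn5, Slfn8 or Slfn9 occurred in another gene. Of the stretches of Slfn2 and Slfn3, 4.04% and 2.88% occurred in Slfn4. In other single transcripts, up to 18.1% of the stretches of Slfn8 and 26.0% of those of Slfn9 occurred in the other of the pair or in the pseudogene Slfn10-ps. The split of reads between them thus carries some uncertainty.

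The promoters are printed to show which of the interferon-responsive members hold an ISRE core close to the start. RefSeq gives the start sites (GRCm38.p6), and the search covered both strands for an ISRE core, which is GAAA, any 2 bases and GAAA again, in the 250 bases before each start. A match occurred in 3 of 7 members (Slfn5, Slfn8 and Slfn9), and in 3.46% of the 27025 genes with a promoter window in the table (2.98% of its 32851 windows). The first base of the match was at position -155 from the RefSeq start in Slfn5 (chr11:82951947-82951956), -48 in Slfn8 (chr11:83020849-83020858) and -45 in Slfn9 (chr11:82991866-82991875). Another RefSeq start of Slfn8 puts the same site at -136. By the annotation that gave the cluster positions, Slfn5 begins at 82951349, before its window, so its match lies inside the annotated gene. The exon at which its printed sequence ends belongs to Slfn5 itself. Capitals mark the match, and each sequence runs 5′ to 3′ on the strand of its gene.
Slfn5, chr11:82951852-82951984, plus strand, ending where an annotated exon begins: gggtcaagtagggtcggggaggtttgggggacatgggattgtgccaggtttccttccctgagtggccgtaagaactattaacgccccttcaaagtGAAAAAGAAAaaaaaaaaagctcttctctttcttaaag
Slfn8, chr11:83020811-83021060, minus strand: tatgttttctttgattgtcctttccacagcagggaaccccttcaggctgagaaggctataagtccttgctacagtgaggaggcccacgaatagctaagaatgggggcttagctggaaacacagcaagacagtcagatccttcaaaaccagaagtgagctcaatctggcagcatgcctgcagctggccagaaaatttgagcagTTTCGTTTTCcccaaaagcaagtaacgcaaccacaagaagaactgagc
Slfn9, chr11:82991831-82992080, minus strand: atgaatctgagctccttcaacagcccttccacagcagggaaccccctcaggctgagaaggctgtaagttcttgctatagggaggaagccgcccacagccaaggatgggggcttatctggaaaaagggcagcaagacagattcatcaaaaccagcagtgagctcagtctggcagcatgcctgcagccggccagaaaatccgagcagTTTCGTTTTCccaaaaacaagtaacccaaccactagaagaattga

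The windows of Slfn8 and Slfn9 were 83.3% identical over 245 aligned bases and hold the same 10 letters. The windows of Slfn1 and Slfn2 are shown for contrast, since both genes responded to IFNa and neither window holds an exact ISRE core. The search allowed no mismatch, so close variants of the core were not counted.
Slfn1, chr11:83116570-83116819, plus strand: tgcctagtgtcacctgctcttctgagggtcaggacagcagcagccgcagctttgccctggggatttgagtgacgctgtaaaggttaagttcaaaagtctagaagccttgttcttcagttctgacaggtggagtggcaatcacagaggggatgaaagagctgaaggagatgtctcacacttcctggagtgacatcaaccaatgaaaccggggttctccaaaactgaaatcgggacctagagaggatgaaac
Slfn2, chr11:83064862-83065111, plus strand: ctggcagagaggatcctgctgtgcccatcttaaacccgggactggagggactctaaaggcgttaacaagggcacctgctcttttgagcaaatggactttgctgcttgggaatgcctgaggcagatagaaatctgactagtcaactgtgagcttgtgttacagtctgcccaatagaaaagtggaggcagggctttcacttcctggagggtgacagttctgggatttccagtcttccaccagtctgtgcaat

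The letters TTCNNNGAA of the gamma-activated site (GAS) occurred in the window of 0 of 7 members and in 8.13% of all genes (7.02% of all windows). The κB-like letters, GGG, any 5 bases and CC, occurred in 2 members, Slfn1 and Slfn9, and in 48.65% of all genes (45.8% of all windows). A match is a description of letters and not a measured binding site.

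The samples held from 922450 to 2923865 UMI counts each. Of the 7 members, 6 had any count and 5 (Slfn1, Slfn2, Slfn5, Slfn8 and Slfn9) passed the filter on low counts that left 9431 genes for testing. With Unstimulated and CpG samples alone, Slfn1 and Slfn9 did not pass this filter. They entered through groups with IFNa, so each count over the 5 tested members includes genes admitted by their levels with IFNa. Levels are given as CPM, the counts scaled to a common library total with the TMM factors of edgeR, with the SD over the 3 samples of a group. A gene was called up- or down-regulated where the quasi-likelihood test of edgeR gave an adjusted p under 0.1 (Benjamini-Hochberg over all genes tested) and the log2 fold change was over 1 in size. The label was checked by markers. The summed level of 10 follicular B cell markers was between 11600 and 12910 CPM in Unstimulated cells, 10080 and 11400 with IFNa, 2529 and 2572 with CpG, and 2169 and 2198 with CpG + IFNa, and none of them was at 0 in any group. Of the myeloid markers, where Slfn4 is known, Lyz2, Csf1r, Cd14 and S100a8 were at 0 counts in all IFNa samples and had 16, 10, 3 and 1 counts over the Unstimulated samples. Of the 10 myeloid markers in the table, 0 were at 0 counts in the Unstimulated group, 6 with IFNa, 5 with CpG and 5 with CpG + IFNa. Their summed level was between 597.7 and 795.9 CPM with IFNa, against 40.04 to 75.94 in Unstimulated cells, 4.99 to 11.05 with CpG and 16.56 to 34.43 with CpG + IFNa, and Ly6c2 alone averaged 656 CPM with IFNa. The 8 T cell markers in the table summed to between 30.9 and 43.9 CPM in Unstimulated cells, 42.6 and 51.9 with IFNa, 4.28 and 9.99 with CpG, and 5.46 and 7.25 with CpG + IFNa, most of it from Lck, while Cd3g and Cd8a were at 0 counts in every group. The 4 NK cell markers summed to between 3.53 and 5.35 CPM in Unstimulated cells, 1.01 and 2.43 with IFNa, 0 and 1.23 with CpG, and 0 and 0.69 with CpG + IFNa. Of the 6 markers of plasmacytoid dendritic cells, Siglech and Klk1 were at 0 counts in every group. Their summed level was between 1056 and 1138 CPM in Unstimulated cells, 1833 and 2207 with IFNa, 895 and 1018 with CpG, and 1768 and 1956 with CpG + IFNa, so its samples were higher in both groups with IFNa than in both groups without, as were those of Slfn1, Slfn2, Slfn5 and Slfn8 but not those of Slfn9. Bst2, itself known as interferon-inducible, averaged 69.2, 1105, 114 and 1080 CPM in this order of groups, and Irf8 and Tcf4, which B cells also express, made up nearly all of the rest. The part of this list in the results was not tested. In bulk samples, fewer cells of a type and less RNA per cell cannot be told apart.

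IFNa alone up-regulated all 5 tested Schlafen genes, and each IFNa sample was above each Unstimulated sample for all of them. Of these genes, Slfn1 and Slfn9 had passed the filter on low counts through groups with IFNa. Over all genes tested, 4.56% were called up and 4.07% down in this comparison, and 16.4% had all IFNa samples above all Unstimulated samples. The median log2 fold change was 2.88 over the 5 members and -0.0012 over all genes tested. The size differed widely among members, from 4.42-fold for Slfn2 to 111-fold for Slfn1.

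Slfn1 moved most. It had 3, 3 and 7 counts in the Unstimulated samples (2.73, 3.21 and 6.18 CPM) and 549, 604 and 629 counts in the IFNa samples (554, 367 and 480 CPM). Near the limit of detection before stimulation, it was at 367 CPM or more in every IFNa sample. Its log2 fold change of 6.79 ± 0.24 (SE, adjusted p = 3.96e-21) was at rank 2 from the top of 9431 genes, and the ratio of the summed counts was 110 (95% interval from 64.2 to 207, counting error only).

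Slfn5, a nuclear member, was at 45.5, 46.0 and 58.2 CPM in Unstimulated cells and at 1904, 1372 and 1658 CPM with IFNa. This was a log2 fold change of 5.03 ± 0.15 (adjusted p = 8.81e-23), at rank 20 from the top. Slfn9 went from 7.28, 4.28 and 7.94 CPM to 62.6, 39.5 and 48.8 CPM, a log2 fold change of 2.88 ± 0.30 (adjusted p = 3.56e-09). Its close relative Slfn8 went from 69.2, 79.2 and 79.4 CPM to 480, 465 and 498 CPM, a log2 fold change of 2.66 ± 0.13 (adjusted p = 1.73e-17). The quiescence factor Slfn2, already at 204, 238 and 265 CPM without stimulus, reached 1177, 829 and 1126 CPM, a log2 fold change of 2.14 ± 0.13 (adjusted p = 3.50e-15). The lowest IFNa sample of each gene was still above the highest Unstimulated sample, and the IFNa sample with the lowest level was replicate 2 for all 5 genes.

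**Figure D1:**
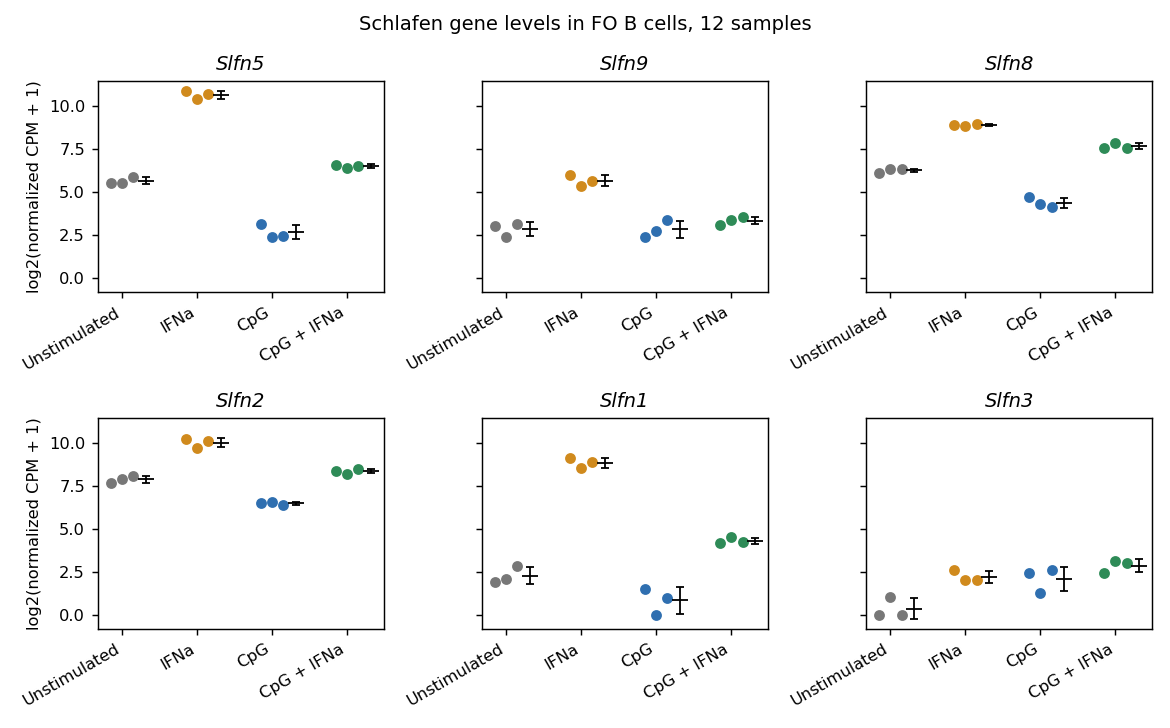
Each panel plots 1 gene on a log scale, log2(normalized CPM + 1), with a point for each of the 3 samples of the 4 groups and a bar for the mean and SD of these log values. IFNa samples are the highest for Slfn5, Slfn9, Slfn8, Slfn2 and Slfn1, CpG samples are the lowest for all of these but Slfn9, and Slfn3 stays within 7.59 CPM.

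CpG alone down-regulated 4 of the 5 tested members, Slfn5, Slfn8, Slfn2 and Slfn1. Slfn9 did not pass the test (log2 fold change 0.02 ± 0.42, adjusted p = 0.969), and Slfn3, which did not pass the filter on low counts, was called up in the fit without a filter. When the fit held only Unstimulated and CpG samples, Slfn1 and Slfn9 did not pass the filter. The 3 members that did (Slfn5, Slfn8 and Slfn2) were all called down. This comparison changed a large part of the transcriptome, with 25.5% of all tested genes called down and 20.1% called up. The median log2 fold change was -1.92 over the members and -0.03 over all genes tested. The summed level of follicular B cell markers was also lower with CpG (2529 to 2572 CPM against 11600 to 12910), and so were those of T cell markers (4.28 to 9.99 against 30.9 to 43.9), myeloid markers (4.99 to 11.05 against 40.04 to 75.94) and NK cell markers (0 to 1.23 against 3.53 to 5.35). The part of these lists in the differences was not tested.

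Slfn5 fell to 7.98, 4.28 and 4.49 CPM with CpG, a log2 fold change of -3.15 ± 0.27 (adjusted p = 3.92e-12) or an 8.89-fold lower level. Slfn8 fell to 25.2, 18.5 and 16.5 CPM, a log2 fold change of -1.92 ± 0.18 (adjusted p = 4.47e-11). Slfn2 fell to 88.4, 92.0 and 83.9 CPM, a log2 fold change of -1.42 ± 0.14 (adjusted p = 1.91e-10). For these 3 genes the CpG samples lay below all Unstimulated samples, as they did for 37.1% of all tested genes.

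Slfn1 had 3, 0 and 2 counts in the CpG samples, at the limit that this depth allows. The summed counts were 5 with CpG and 13 in Unstimulated cells, a ratio of 0.242 after scaling (95% interval from 0.0675 to 0.723, counting error only). Its test passed with an adjusted p of 0.0189, and without Unstimulated replicate 3, which held 7 of the 13 counts, the adjusted p was 0.157. With the 2-fold threshold inside the test it was 0.103, and the gene was not called. Without CpG replicate 1 the log2 fold change of Slfn1 was -2.65 in place of -1.96. Slfn9 had 7, 8 and 19 counts with CpG (4.30, 5.70 and 9.49 CPM), which overlapped the Unstimulated samples, and the ratio of summed counts was 1.02 (95% interval from 0.574 to 1.85). CpG replicate 3 held 19 of its 34 counts.

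When IFNa was added to CpG, 4 of 5 tested members were up-regulated relative to CpG alone, again with Slfn9 as the exception. Over all tested genes, 2.95% were called up and 2.01% down. The median log2 fold change was 3.36 over the 5 members and -0.04 over all genes tested. For the 4 called members every CpG + IFNa sample was above every CpG sample, and the same held for 11.5% of all tested genes.

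Slfn1 had 31, 63 and 34 counts with CpG + IFNa (16.9, 21.7 and 17.5 CPM). Against the 5 counts summed over the CpG samples this was a ratio of 19.3 (95% interval from 8.06 to 60.5), and the fitted log2 fold change was 4.16 ± 0.45 (adjusted p = 1.23e-08). Without CpG replicate 1, which held 3 of the 5 counts, it was 4.84, and with counts drawn down to the smallest library it was 3.42, and the gene was called in both. Slfn5 was at 96.5, 83.8 and 90.4 CPM with CpG + IFNa, 15.9-fold above CpG (log2 fold change 4.0 ± 0.23, adjusted p = 1.28e-15). Slfn8 was at 187, 234 and 192 CPM, 10.3-fold above CpG (3.36 ± 0.16, adjusted p = 3.78e-18). Slfn2 was at 331, 297 and 354 CPM, 3.71-fold above CpG (1.89 ± 0.14, adjusted p = 5.95e-13).

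Slfn9 had 14, 27 and 21 counts with CpG + IFNa (7.64, 9.31 and 10.8 CPM), within reach of its CpG samples, the highest of which was at 9.49 CPM. The log2 fold change was 0.46 ± 0.33 with an adjusted p of 0.434, and the ratio of summed counts was 1.38 (95% interval from 0.891 to 2.15, counting error only). For IFNa without CpG the ratio of summed counts was 7.3 (95% interval from 4.64 to 12.1). Both intervals leave out the spread between samples, and the test of this difference is the interaction below.

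**Figure D2:**
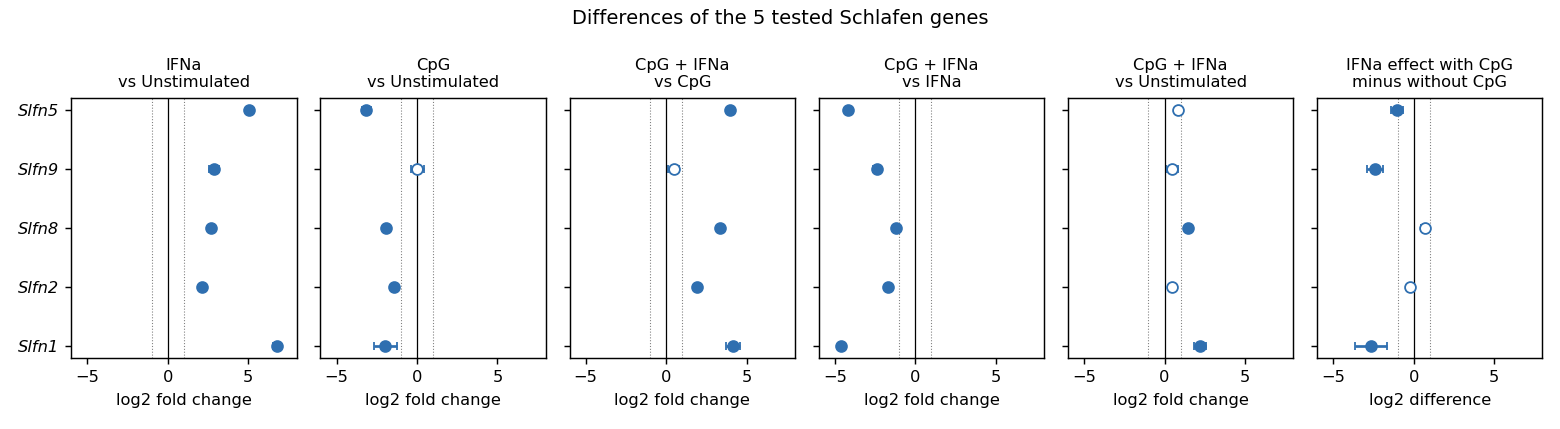
Each panel is 1 comparison and plots the log2 fold change of the 5 tested genes with its SE, with filled points for genes that were called and dotted lines at a log2 fold change of 1 in either direction. IFNa moved all 5 genes to the right without CpG, while with CpG the point of Slfn9 sits at 0.46. The right panel plots the difference between both IFNa effects.

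CpG + IFNa against IFNa alone gave lower levels of all 5 tested members, and no sample of a member overlapped between these groups. Here 25.5% of all tested genes were called down and 18.7% up, 37.4% had all samples lower without overlap, and the median log2 fold change was -2.40 over the members and -0.07 over all genes tested. Slfn1 and Slfn5 kept the smallest part of their IFNa level, with log2 fold changes of -4.60 ± 0.17 (adjusted p = 9.09e-22) and -4.19 ± 0.14 (adjusted p = 7.51e-23), which are 24.3-fold and 18.2-fold lower levels. With counts drawn down to the smallest library, the value of Slfn1 was -5.20. Slfn9 was 5.28-fold lower (-2.40 ± 0.24, adjusted p = 1.53e-10) and Slfn2 was 3.19-fold lower (-1.67 ± 0.12, adjusted p = 7.15e-14). Slfn8 kept the most, with a 2.34-fold lower level (-1.23 ± 0.11, adjusted p = 1.58e-11). Differences between genes in this order were not tested. Follicular B cell markers were again lower, at 2169 to 2198 CPM against 10080 to 11400, as were T cell markers (5.46 to 7.25 against 42.6 to 51.9), myeloid markers (16.56 to 34.43 against 597.7 to 795.9) and NK cell markers (0 to 0.69 against 1.01 to 2.43), and their part was not tested.

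Against Unstimulated cells, CpG + IFNa left 2 of 5 tested members called up, Slfn1 and Slfn8, and 0 called down, in a comparison with 20.3% of all tested genes called up and 25.6% down. All CpG + IFNa samples were above all Unstimulated samples for Slfn1, Slfn2, Slfn5 and Slfn8, as they were for 36.6% of all tested genes. The median log2 fold change was 0.84 over the members and -0.01 over all genes tested. Slfn1 was 4.57-fold higher (log2 fold change 2.19 ± 0.39, adjusted p = 7.79e-06, and 1.41 with counts drawn down to the smallest library) and Slfn8 was 2.70-fold higher (1.43 ± 0.14, adjusted p = 3.24e-11). Slfn5 and Slfn2 were higher with adjusted p of 4.03e-05 and 0.00174, but the log2 fold changes of 0.84 ± 0.17 and 0.47 ± 0.13 were under the threshold of 1. Slfn5 was called in this comparison without Unstimulated replicate 3, with a log2 fold change of 1.04. Slfn9 was at 0.48 ± 0.38 (adjusted p = 0.253) and its samples overlapped between both groups.

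The order of the levels was therefore IFNa, CpG + IFNa, Unstimulated and CpG from high to low for Slfn1, Slfn2, Slfn5 and Slfn8, and the samples of neighbouring groups in this order did not overlap. The same order without overlap was found in 0.901% of all tested genes. For Slfn2 and Slfn5, the step between CpG + IFNa and Unstimulated passed the adjusted p and not the fold threshold. For Slfn1, the step between Unstimulated and CpG rested on 13 against 5 summed counts, CpG replicate 1 had 3 counts as did Unstimulated replicates 1 and 2, and the call was lost without Unstimulated replicate 3 (adjusted p = 0.157). For Slfn9, IFNa stood above the other 3 groups, among which no difference passed the test.

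The comparison with the interaction term asked whether the log2 effect of IFNa with CpG differed from that without CpG. A positive difference means a higher log2 fold change with CpG than without it, which for a gene lowered by IFNa can be a smaller change. Over all genes tested, 3.09% were called with a positive difference and 3.17% with a negative one. Of the 5 members, all of which had higher levels with IFNa, 3 were called with a negative difference and 0 with a positive one, and the median difference was -1.04 over the members and -0.05 over all genes tested. Slfn9 differed by -2.42 ± 0.48 (adjusted p = 0.00088), and it remained called when any 1 of the 12 samples was left out, with values from -2.65 to -1.99.

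The other calls were close to the thresholds. Slfn1 differed by -2.64 ± 1.0 with an adjusted p of 0.0979, and it was no longer called in 9 of the 12 fits that left out 1 sample. Slfn5 differed by -1.04 ± 0.36 with an adjusted p of 0.0698, and it was no longer called in 5 of these 12 fits. Slfn8 differed in the other direction, by 0.70 ± 0.22 with an adjusted p of 0.0381, but under the fold threshold. Slfn2 differed by -0.25 ± 0.19 (adjusted p = 0.467), so that its IFNa response with CpG was 0.841 times that without CpG.

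Slfn8 and Slfn9 are neighbours on the same strand and the most similar pair of the family, so their counts were also compared within each sample, where scaling between samples has no part. This measure was chosen after the values of both genes were seen. Slfn9 made up 9.52%, 5.13% and 9.09% of the counts of the pair in Unstimulated samples, and 11.5%, 7.83% and 8.94% in IFNa samples. With CpG the share was 14.6%, 23.5% and 36.5%, on only 34 to 52 counts a sample. With CpG + IFNa it was 3.92%, 3.83% and 5.33%, on 357 to 705 counts. All CpG samples were thus above all samples of the other 3 groups. All CpG + IFNa samples were below all IFNa and CpG samples, and 1 of them lay above the lowest Unstimulated sample.

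The mean share was 4.36% ± 0.84 (SD, n = 3) with CpG + IFNa, 9.43% ± 1.90 with IFNa, 24.88% ± 11.04 with CpG and 7.91% ± 2.42 in Unstimulated cells. In exact permutation tests (two-sided), CpG + IFNa against IFNa and against CpG each gave p = 0.1, which is the smallest p that 3 against 3 samples allow, and IFNa against Unstimulated cells gave p = 0.6. Adjusted over these 3 comparisons the p-values were 0.15, 0.15 and 0.6. With 3 samples a group no comparison could give a p under 0.1, so these tests cannot decide if the shares differ. Since the measure was chosen with the values known, the shares are given as a description.

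**Figure D3:**
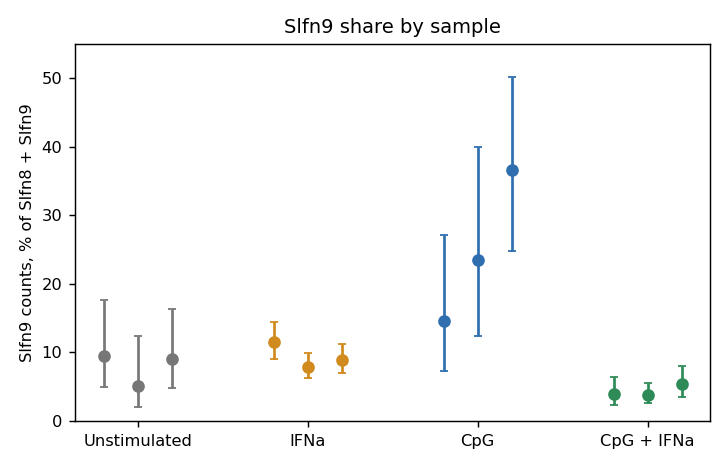
The share of Slfn9 in the summed counts of Slfn8 and Slfn9 is plotted in percent for each of the 12 samples, with 95% Wilson intervals that cover counting error only. CpG samples lie between 14.6% and 36.5% with wide intervals, and CpG + IFNa samples lie between 3.83% and 5.33%.

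Slfn3 and Slfn4 were low. Slfn3 had 78 counts in all and did not pass the filter. It had 0, 1 and 0 counts in Unstimulated samples, 5, 5 and 4 with IFNa, 7, 2 and 10 with CpG, and 8, 22 and 14 with CpG + IFNa. All stimulated samples thus had more counts than any Unstimulated sample, at 1.43 to 7.59 CPM. In the fit without a filter, the log2 fold change against Unstimulated cells was 3.20 with IFNa (adjusted p = 0.0261), 3.32 with CpG (adjusted p = 0.00284) and 4.17 with CpG + IFNa (adjusted p = 5.59e-06). These fitted values rest on 1 Unstimulated count, and the ratios of summed counts had wide intervals, from 1.71 to 475 for IFNa and from 3.56 to 843 for CpG + IFNa. Slfn3 was the only member called up by CpG alone in that fit. Slfn4, which is known from myeloid cells, had 0 counts in all 12 samples, against a limit of 3 counts that was between 1.03 and 3.21 CPM by sample. Slfn14, a long member outside the group chosen here, also had 0 counts.

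Genes around the cluster were read for comparison. The table held 26 other genes between the outermost members or within 250 kb of them, of which 11 were tested. Of these 11, 1 was called up and 1 down by IFNa alone, 4 up and 0 down by CpG alone, 2 up and 0 down by CpG + IFNa against CpG, 7 up and 0 down by CpG + IFNa against IFNa, and 6 up and 0 down by CpG + IFNa against Unstimulated cells. Over all genes tested, the shares called up in these comparisons were 4.56%, 20.1%, 2.95%, 18.7% and 20.3%, and the shares called down were 4.07%, 25.5%, 2.01%, 25.5% and 25.6%. The difference between neighbours and members was not tested. In the interaction, 1 neighbour was called, with a positive difference, the DNA ligase gene Lig3 (1.45, adjusted p = 0.0716), beside 3.09% of all genes with a positive and 3.17% with a negative difference.

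The pseudogenes Slfn10-ps and Gm11425 inside the cluster both had their highest mean level with CpG + IFNa (36.5 and 9.82 CPM). Slfn10-ps had 9, 2 and 10 counts in Unstimulated samples, 5, 28 and 9 with IFNa, 13, 24 and 35 with CpG, and 54, 123 and 73 with CpG + IFNa. Its CpG + IFNa samples were above all others. The log2 fold change was 1.37 ± 0.27 for CpG + IFNa against CpG (adjusted p = 0.000398), 1.81 ± 0.30 against IFNa (adjusted p = 3.29e-06), and 0.66 ± 0.47 for IFNa alone (adjusted p = 0.368), and the gene was called up by CpG alone (1.1 ± 0.43, adjusted p = 0.0226), with samples that overlapped. In its longest transcript 10.4% of the stretches of 81 bases near the end occurred in Slfn8 or Slfn9, and the part of such reads in its counts was not tested. Gm11425, a processed pseudogene between Slfn8 and Slfn10-ps, was called up by IFNa alone (2.71, adjusted p = 0.0128), by CpG alone (2.70, adjusted p = 0.00235) and by CpG + IFNa against CpG (1.11, adjusted p = 0.0414).

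Among the flanking genes, Lig3 was called down by IFNa alone (-1.11, adjusted p = 0.0822). Nle1, a ribosome assembly factor, was called up by CpG alone (2.87, adjusted p = 1.23e-13), and so was AI662270 (1.79, adjusted p = 1.31e-14). Nle1 changed by 0.30 with IFNa alone (adjusted p = 0.526). Zfp830, Rad51d, Gm11427, AA465934 and Ap2b1 were called neither by IFNa alone nor by CpG alone, with log2 fold changes from -0.39 to 0.17 for IFNa alone. Of the antisense transcripts that overlap members, Slfn5os over Slfn5 had 1 count and Gm20234 over Slfn2 had 28 counts in all, against 7099 and 7349 counts of Slfn5 and Slfn2.

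**Figure D4:**
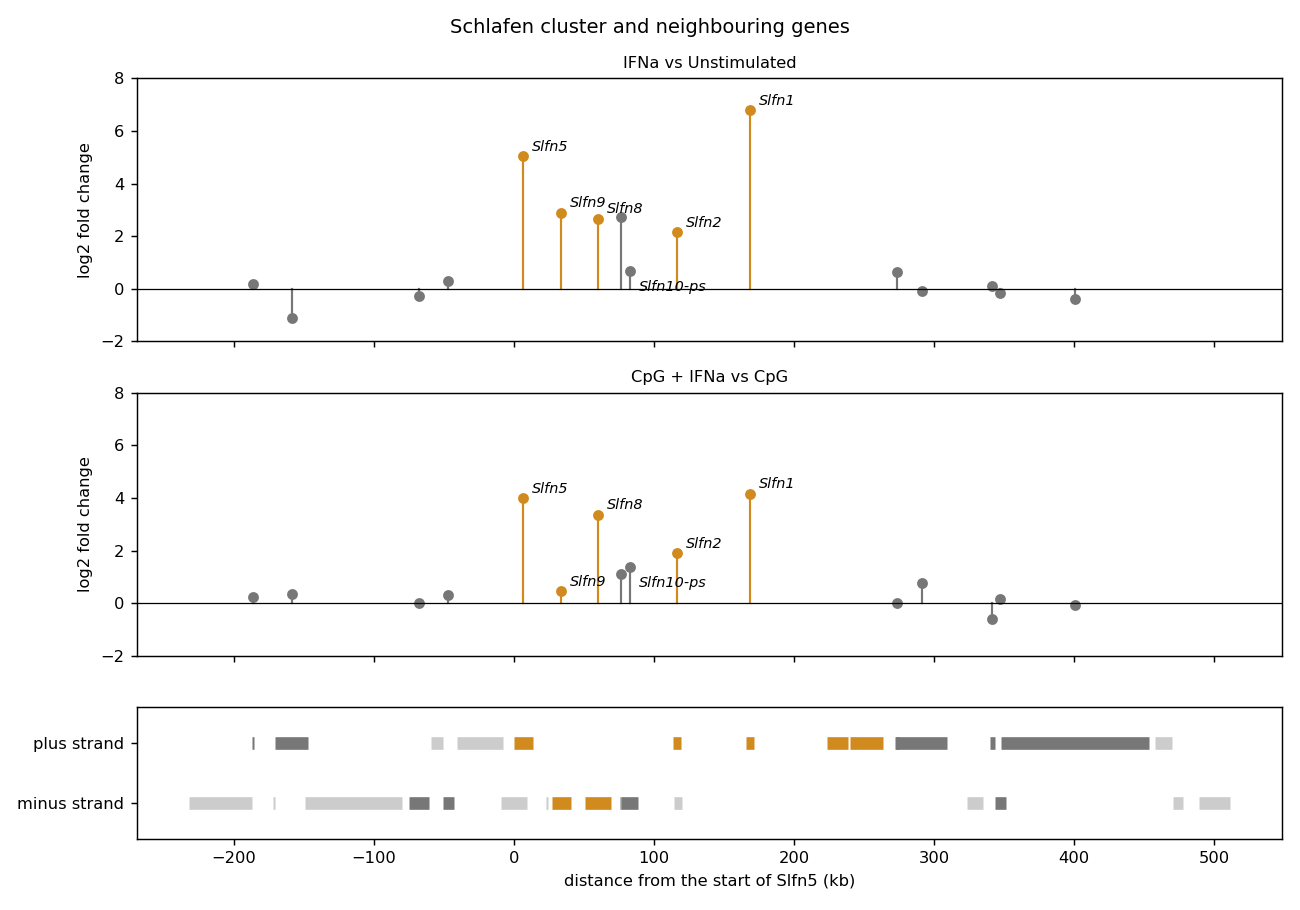
The upper panels plot the log2 fold change of tested genes by distance in kb from the start of Slfn5, with members in orange and other genes in grey, for IFNa against Unstimulated cells and for CpG + IFNa against CpG. The lower panel shows each gene of the table by strand, with untested genes that are not members in light grey. All 5 tested members stand above 2 in the upper panel, and Slfn9 falls to 0.46 in the middle panel.

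A list of 13 genes of type I interferon signalling, all tested, was read beside the members. IFNa alone called 6 up and 1 down, CpG alone called 0 up and 10 down, and CpG + IFNa against CpG called 7 up and 0 down. Against IFNa alone, CpG + IFNa called 7 down and 0 up. The median log2 fold changes were 0.76, -1.46, 2.21 and -1.53 in this order, against -0.0012, -0.03, -0.04 and -0.07 over all genes tested, of which 4.56% were called up by IFNa, 25.5% down by CpG, 2.95% up by CpG + IFNa against CpG and 25.5% down by CpG + IFNa against IFNa. Against Unstimulated cells, CpG + IFNa called 3 of the 13 up and 5 down, beside 20.3% and 25.6% of all genes. The median there was -0.16 over the list and -0.01 over all genes tested. Stat2, an activator downstream of the receptor, and Irf7, an interferon-induced transcription factor, were both among those called up by IFNa. Stat2 averaged 69.4 CPM in Unstimulated cells, 478 with IFNa, 6.19 with CpG and 62.6 with CpG + IFNa. Irf7 averaged 61.4, 1762, 12.1 and 315 CPM in the same order of groups. The isopeptidase Usp18, which removes Isg15 and restrains the receptor, differed by -0.64 between CpG + IFNa and IFNa (adjusted p = 6.28e-05), under the fold threshold. In the interaction 3 of the 13 were called with a positive difference and 0 with a negative one, beside 3.09% and 3.17% of all genes tested. These were the transcription factor gene Irf1 (2.01, adjusted p = 0.000567) and the genes of the signalling inhibitors Socs3 (3.06, adjusted p = 0.00845) and Socs1 (1.11, adjusted p = 0.0971). These differences rest on groups with low levels. With CpG, Irf1 averaged 3.35 CPM and Socs1 4.97 CPM, and Socs3 averaged 1.78 CPM with IFNa and 2.74 CPM with CpG + IFNa. Socs3 was the gene called down by IFNa alone (-3.86 ± 0.47, adjusted p = 6.53e-08), so that its positive difference goes with a fall without CpG. Stat2, Irf7 and Usp18 were not among these, with differences of 0.55, -0.13 and 0.32.

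Genes of lymphocyte quiescence, the state that Slfn2 is known to maintain, were read beside Slfn2, with no test of the list against it. Of 13 such genes, all tested, 0 were called up and 3 down by IFNa alone, 0 up and 9 down by CpG alone, and 0 up and 11 down by CpG + IFNa against Unstimulated cells. Over all genes tested, 4.07%, 25.5% and 25.6% were called down and 4.56%, 20.1% and 20.3% up in these comparisons. The median log2 fold changes were -0.14, -2.0 and -2.32 over the list, against -0.0012, -0.03 and -0.01 over all genes. CpG + IFNa against CpG called 1 of the list down, and against IFNa 9 down, beside 2.01% and 25.5% of all genes. The interaction called 1 with a positive difference and 0 with a negative one, beside 3.09% and 3.17% of all genes. The genes called down by IFNa alone were Klf2, a transcription factor of resting lymphocytes (log2 fold change -1.45 ± 0.14, adjusted p = 4.49e-10), and the antiproliferative genes Btg1 (-1.28 ± 0.11, adjusted p = 1.76e-11) and Tob1 (-1.07 ± 0.24, adjusted p = 0.0014). The other 10 were not called, with log2 fold changes from -0.79 for Tob2 (adjusted p = 2.14e-05) to 0.45 for the antiproliferative gene Btg2 (adjusted p = 0.00787), both under the fold threshold. Klf2 averaged 1750 CPM in Unstimulated cells, 643 with IFNa, 33.4 with CpG and 14.8 with CpG + IFNa, and was also lower with CpG + IFNa than with CpG (-1.14 ± 0.25, adjusted p = 0.00129). Slfn2 averaged 236, 1044, 88.1 and 327 CPM in the same order.

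Of 13 symbols listed for tRNA cleavage and tRNA protection, 12 were in the table and 9 were tested. Here 1 was called up by IFNa alone, 5 up by CpG alone, and 0 in either direction by CpG + IFNa against CpG, where the median log2 fold change was 0.07. Against IFNa, CpG + IFNa called 4 up and 1 down, and against Unstimulated cells 5 up and 0 down. Over all genes, 4.56% were called up by IFNa alone and 20.1% by CpG alone. CpG + IFNa called 2.95% of all genes up and 2.01% down against CpG, 18.7% up and 25.5% down against IFNa, and 20.3% up and 25.6% down against Unstimulated cells. The gene called by IFNa alone was Trdmt1, a tRNA methyltransferase (1.25 ± 0.50, adjusted p = 0.0798), at 3.33 CPM in Unstimulated cells and 8.25 CPM with IFNa. The interaction called 1 with a negative difference and 0 with a positive one, beside 3.17% and 3.09% of all genes.

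The genes outside the family whose levels were most alike over the 12 samples were taken by Pearson's r of log2(normalized CPM + 1) among 9425 tested genes. These correlations describe 4 groups of 3 samples and carry no p. For Slfn1 they were Znfx1 (r = 0.990), the interferon-inducible GTPase Tgtp2 (0.988) and Ifit3b (0.987). Dtx3l, a ubiquitin ligase, was the first for both Slfn2 (0.995) and Slfn5 (0.994). Slfn2 was further alike to Tor1aip1 and to the class I gene H2-T22, and Slfn5 to Rnf114 and Ifi209. Slfn8 was most alike to Parp14 (0.996), Trim12c and Rtp4. For Slfn9, they were 9330175E14Rik (0.959), Tgtp1 (0.959) and the guanylate-binding protein gene Gbp2 (0.944). Within the family, r was highest for Slfn2 and Slfn5 (0.993) and lowest for Slfn8 and Slfn9 (0.768), the pair with the most similar coding sequence.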

How the data were processed

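RNA of sorted FO B cells was measured in 12 samples, 3 in each of 4 groups, which were taken from the sample labels. Per gene, the authors deposited raw UMI counts, which they had not normalized. By the study's methods and the submitters' processing notes, the authors extracted barcodes with UMI-tools 1.1.2, trimmed reads with Trim Galore 0.6.7, mapped them to GRCm38 with HISAT2 2.2.1 and counted them with featureCounts 2.0.1, and they extended a receptor gene at its 3′ end. The annotation release and strand setting are not given in the sources used here. A file of sample barcodes was not used. All 22561 identifiers were in GENCODE M21, which gave positions, and symbols matched RefSeq promoters for 7 of 7 members. Reads of overlapping antisense genes cannot be told apart if strand was not used.

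These deposited counts were scaled by TMM and filtered by filterByExpr with edgeR 4.0.16 (R 4.3.3), which fitted all 4 groups in 1 quasi-likelihood model with 8 residual degrees of freedom. A gene was called at a threshold of 0.1 for the adjusted p (Benjamini-Hochberg) and 1 for the size of the log2 fold change. Every member was named with values in every sample. Of each gene list, genes called by IFNa alone or by CpG + IFNa against CpG were named, up to the 4 with the smallest p, as were tested neighbours, and some results under this rule are not reported here. Single genes named beyond this rule were chosen after their values were seen. The members and lists were chosen with earlier results of these data known. Where a group had at most 3 counts in each sample, the ratio of summed counts is given with an exact 95% interval. Coding sequences were aligned with Biopython 1.88. Alternatives were other scalings (size factors of DESeq2 1.42.0, library size alone, totals without rRNA and mitochondrial genes), filters, thresholds and tests, thinned counts, fits of the compared groups alone, a replicate block, and leaving out each sample.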

Additional observations from a re-analysis of the deposited data

Results flagged for a closer look

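The effect of IFNa on 3 Schlafen genes differed between cells with and without CpG in the interaction test of edgeR. For Slfn9 the log2 effect was smaller by 2.42 with CpG (difference -2.42, adjusted p = 0.00088), from 2.88 without CpG to 0.46 with it. For Slfn1 the difference was -2.64 (adjusted p = 0.0979), with 5 counts in all of the CpG samples. For Slfn5 it was -1.04 (adjusted p = 0.0698). Without CpG replicate 1, the differences were -1.95 for Slfn1 (adjusted p = 0.493) and -0.70 for Slfn5 (adjusted p = 0.393). Without CpG replicate 3, which held 19 of the 34 Slfn9 counts of its group, the difference for Slfn9 was -1.99 (adjusted p = 0.0279).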

How the results depend on the processing

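The calls of all 5 tested members for IFNa against Unstimulated cells held under every alternative run, as did the calls of Slfn1, Slfn5 and Slfn8 for CpG + IFNa against CpG. Slfn9 in CpG against Unstimulated cells had no stable sign, with log2 fold changes of -0.0153 (DESeq2 size factors, adjusted p = 0.977), -0.0019 (library size alone), -0.0038 (at least 10 counts in 3 samples), -0.0222 (DESeq2) and -0.0045 (totals without rRNA and mitochondrial genes), and from -0.41 to 0.25 with 1 sample left out. The number of members called down in the interaction was 1 in place of 3 with library size alone, with no filter, with the 2-fold threshold inside the test, and with totals without rRNA and mitochondrial genes, and from 1 to 3 with 1 sample left out. In each fit with 1 call, the call was Slfn9. The number was 2 with DESeq2 size factors and with thinned counts, where Slfn1 was not called, and 2 with DESeq2, where Slfn5 was not called. Slfn3 entered without a filter and with at least 10 counts in 3 samples, which gave 1 in place of 0 members called up by CpG. With the 2-fold threshold inside the test, 3 of 4 members remained called down in CpG against Unstimulated cells, without Slfn1. A log2 fold change over 2 left 1 of 4 members down in CpG against Unstimulated cells, 3 of 4 up in CpG + IFNa against CpG (without Slfn2), 3 of 5 down in CpG + IFNa against IFNa, 1 of 2 up in CpG + IFNa against Unstimulated cells and 2 of 3 down in the interaction (without Slfn5), which the stricter threshold brings by construction. With only the groups compared, Slfn1 and Slfn9 did not pass the filter in CpG against Unstimulated cells. Over all genes, the share of interaction calls with a positive difference was 49.3% and became 59.4% with totals without rRNA and mitochondrial genes and 60.7% without a filter. Deviations from the group means of samples with the same replicate number had r from -0.07 to 0.20 over 18 pairs, of which 5 were over 0.1, against -0.20 to 0.05 for other numbers, and 10 of 12 samples correlated best with their own number. This is a hint of pairing from the data, but since no source ties the numbers to a mouse or day and not every pair was over 0.1, the numbers were not used as pairs. With the replicate block, 5 members were called up by IFNa and 3 down in the interaction, as without it, and it changed no call of a member. Other choices for alike genes shared 1 or 2 of the 3 genes with another pseudocount of 4 and 0 or 1 with Spearman's rho. Depth limits Slfn1 in CpG, Slfn3 and Slfn4, which had at most 3 counts a sample in at least 1 group.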
